A study of Mus musculus with 16 samples.

Results

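The response to imiquimod (IMQ), an agonist of the RNA sensor TLR7, was followed in mouse dendritic cells that were given palmitic acid (PA), a saturated fatty acid, at the same time. The comparison set 4 arrays of cells treated with IMQ and PA against 4 arrays of cells treated with PA and mock, which are 8 of the 16 arrays of the study. The remaining 8 arrays, 4 of cells given IMQ without PA and 4 of mock-treated cells, served to ask where the response with PA differed from the response without it. Members were all genes whose probe set carries 1 gene symbol, with the probe set of the highest mean for each gene, which gave 22180 genes. In every group, marrow cells of male C57/B6 mice were differentiated for 10 days with GM-CSF (20 ng/ml) and then treated for 24 h. PA was used at 0.5 mM as a conjugate with albumin, with 6 molecules of PA for each of albumin. The labels give IMQ as 3 uM in one place and as 3 ug/ml in another, and they do not say whether cells without PA received albumin. They describe PA as present during the treatment and name no loading beforehand. PA and IMQ are read as palmitic acid and imiquimod from knowledge of the study. The labels call the replicates biological but name no animals or cultures behind them, and p-values therefore measure the spread between these arrays, which may be technical.

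TLR7 sits in endosomes and recognises single-stranded RNA and small synthetic agonists such as imiquimod. Its adaptor MyD88 passes the signal to kinases of the IRAK family and on to NF-kB, MAP kinases and interferon regulatory factors, which switch on cytokines, chemokines and interferon-stimulated genes. Palmitic acid is a nutrient whose uptake feeds oxidation, lipid droplets and membrane lipids, and saturated fatty acids are known to strain the endoplasmic reticulum. Cultures of bone marrow grown with GM-CSF are known to hold macrophage-like cells beside dendritic cells.

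Values are log2 levels after RMA, so a difference of 1 is a 2-fold change, and the level of one gene is not comparable with that of another. Arrays of one group correlated with each other at 0.994 to 0.996 across genes, which are not independent replicates, and 0 pairs of arrays held identical values. A level under 4.92, the 95th percentile of the means of 1389 sensory receptor genes, is called dim here. Where 1 of the 2 groups is dim, the change is given as a bound of at least the distance to that level. Of 13 measured dendritic cell markers 12 lay above it in both groups of the comparison, among them Itgax (9.30 in IMQ and PA cells, 10.91 in PA cells), and so did 10 of 11 macrophage and monocyte markers in IMQ and PA cells and 11 of 11 in PA cells. Of 7 lymphocyte markers 6 were dim in both groups, as was the 1 measured erythroid marker. Of 10 neutrophil markers 8 were dim in IMQ and PA cells and 6 in PA cells, and of 8 markers of mast cells, basophils and eosinophils 5 and 7 were dim. The summed level of the dendritic cell markers ranged from 13.35 to 13.36 in IMQ and PA cells and from 13.81 to 13.86 in PA cells. That of the macrophage markers ranged from 14.48 to 14.51 in IMQ and PA cells and from 14.20 to 14.25 in PA cells, and that of the neutrophil markers from 11.06 to 11.16 in IMQ and PA cells and from 12.31 to 12.38 in PA cells. The neutrophil sum follows Mmp8, which averaged 10.77 in IMQ and PA cells and 12.26 in PA cells, while 6 of the 10 markers were dim in both groups and S100a8 rose. The sums add linear levels, so bright members weigh most. The higher macrophage sum follows Cd14, which averaged 12.81 in IMQ and PA cells and 10.66 in PA cells. Of the 11 macrophage markers 4 were called higher and 6 lower. Of the 13 dendritic cell markers 3 were called higher and 9 lower. The part of these shifts in the results below was not tested. In bulk RNA, fewer cells of a type and less RNA per cell cannot be told apart.

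PA replicates 3 and 4 stood apart from PA replicates 1 and 2 in inflammatory genes. Il6, the cytokine of the acute-phase response, read 12.26, 12.25, 12.25 and 12.27 on the IMQ and PA arrays, against 4.12, 3.998, 7.43 and 8.22 on PA replicates 1 to 4. The groups did not overlap, and the first 2 PA replicates were dim while the other two were not. Among the 74 genes that rose by at least 3 on the log2 scale, PA replicates 3 and 4 were both above replicates 1 and 2 in 46, against 4458 of all 22180 genes. The highest PA reading of these 74 genes fell on replicates 1 to 4 in 4, 4, 14 and 52 cases. Expressed as a share of the level in IMQ and PA cells, their median reading was 7.81%, 8.16%, 9.34% and 10.2% in the 4 PA replicates. The mock arrays used for the response without PA were also uneven, with Il6 at 7.57, 7.90, 7.71 and 4.32 on mock replicates 1 to 4, against 11.90, 11.86, 11.86 and 12.02 on the IMQ arrays. For some results named below that moved when these arrays were left out, the value without them is given beside it. Other results also moved, so a result printed without such a value is not thereby unaffected.

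IMQ changed the expression of a large share of the transcriptome of PA-treated cells. Il6 had the largest rise and Mamdc2 the largest fall. At a Benjamini-Hochberg adjusted p under 0.05 in limma over all genes, 7836 of 22180 genes (35.3%) were called, 3722 higher (16.8%) and 4114 lower (18.5%). Since so many passed, a second rule added a change of at least 1 on the log2 scale, which 1247 genes (5.62%) met, 622 higher (2.80%) and 625 lower (2.82%). No overlap of the arrays of both groups was found for 7923 genes (35.7%), and all 1247 genes of the second rule were among them. Changes of at least 2 were met by 179 higher and 102 lower genes, and changes of at least 3 by 74 higher and 18 lower genes. The difference between this response and the one without PA was tested in the same model and called for 3015 genes (13.6%), 1460 with a more positive change in the presence of PA (6.58%) and 1555 with a more negative one (7.01%). Shares over all genes include dim ones. With genes dim in every group left out, 7825 of 13621 genes were called for the response with PA and 3508 for the difference. Of these differences 1643 were more positive and 1865 more negative. The counts of called differences in the lists below stand beside these numbers.

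Leaving aside loci with clone-based or predicted names, the 8 largest rises were in Il6, Gja1, the neutrophil-attracting chemokines Cxcl1, Cxcl2, Cxcl3 and Cxcl5, and 2 enzymes of inflammation. The clone-named locus U90926, outside the naming rule and named after its value was seen, rose by 5.87, second to Il6. Il6 rose 79.6-fold (log2 change 6.31 ± 0.88, standard error of the fit, adjusted p = 2.18e-05). Gja1, which encodes a connexin of gap junctions, read 10.28, 10.30, 10.39 and 10.28 in IMQ and PA cells, against 4.22, 4.51, 5.44 and 5.87 in PA cells. The groups were far apart, and the PA arrays spread over more than the IMQ and PA arrays did. As for Il6, PA replicates 1 and 2 were dim and replicates 3 and 4 were not. Gja1 rose 39.4-fold (5.30 ± 0.26, adjusted p = 9.75e-11). Cxcl1, a ligand of the neutrophil receptor CXCR2, read 11.43, 11.49, 11.45 and 11.48 in IMQ and PA cells, against 5.61, 5.26, 6.79 and 7.27 in PA cells, a rise of 5.23 ± 0.44 (adjusted p = 6.00e-08). Ptgs2, the inducible cyclooxygenase that starts prostaglandin synthesis, read 13.001, 12.93, 12.97 and 12.96 in IMQ and PA cells, against 5.94, 5.81, 9.16 and 10.02 in PA cells, a rise of 5.23 ± 0.88. For both genes PA replicates 3 and 4 held the higher PA readings. Cxcl3 (5.23 ± 0.89), the inducible nitric oxide synthase Nos2 (5.15 ± 0.48) and Cxcl2 (4.88 ± 0.45) had the same unevenness in PA cells. Cxcl5 did not, with 9.91, 9.93, 10.00 and 9.89 in IMQ and PA cells and 5.13, 4.77, 5.03 and 5.41 in PA cells, and it rose 28.8-fold (4.85 ± 0.15, adjusted p = 4.24e-13).

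**Figure D1:**
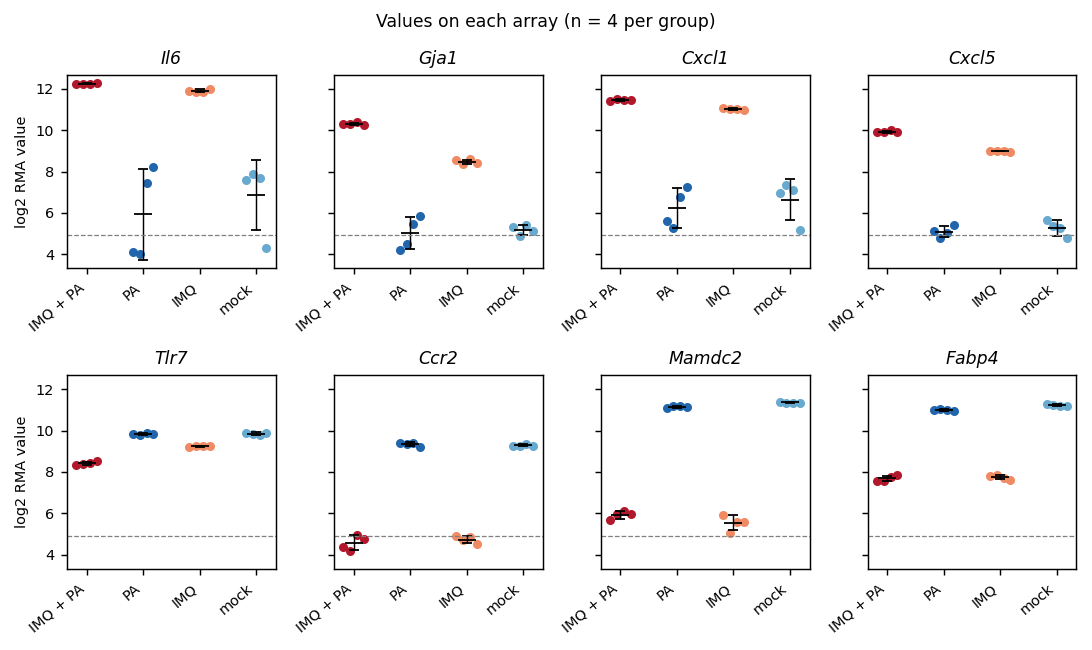
Log2 RMA value (vertical axis) of 8 genes on each array, with 1 point per array, bars for the mean ± SD of 4 arrays and a dashed line at 4.92, the 95th percentile of sensory receptor genes. Il6 and Cxcl1 are even on the IMQ and PA arrays and uneven on the PA and mock arrays, while Ccr2, Mamdc2 and Fabp4 separate into 2 narrow bands.

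Without PA replicates 3 and 4, the rises of the uneven genes were larger. Il6 then rose by at least 7.34, a bound because its PA mean became dim, with a measured change of 8.20. The change was 7.09 for Ptgs2, 6.59 for Cxcl3, 6.03 for Cxcl1, 5.93 for Nos2 and 5.56 for Cxcl2. Gja1 rose by at least 5.39 and Cxcl5 by 4.98 ± 0.17. The number of genes called was 6762, of which 6511 were among the 7836, and 1258 genes met the second rule, of which 1207 were among the 1247. The order of the largest rises therefore depends on these 2 arrays, and their call did not.

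**Figure D2:**
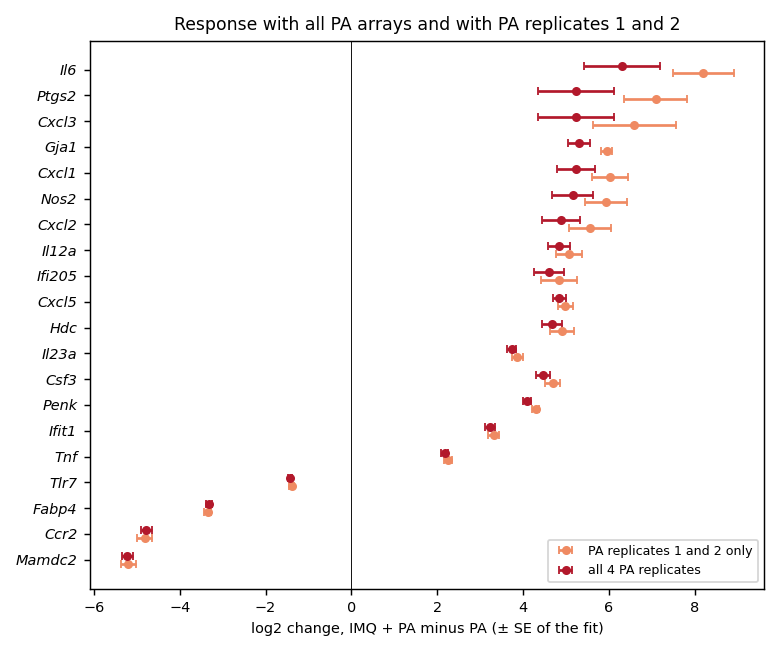
Log2 change of IMQ and PA cells over PA cells (horizontal axis, ± standard error of the fit) for 20 genes, with all 4 PA replicates and with PA replicates 1 and 2 only. Il6 moves to 8.20 and Ptgs2 to 7.09, while Tlr7, Fabp4, Ccr2 and Mamdc2 stay within their errors.

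The falls were even between replicates. Mamdc2, which encodes a secreted protein with MAM domains, read 5.66, 5.94, 6.13 and 5.96 in IMQ and PA cells, against 11.07, 11.18, 11.20 and 11.12 in PA cells, and was 37.2-fold lower (-5.22 ± 0.14, adjusted p = 1.04e-13). Ccr2, the receptor that brings monocytes out of bone marrow towards CCL2, read 4.36, 4.16, 4.96 and 4.76 in IMQ and PA cells, against 9.41, 9.36, 9.40 and 9.19 in PA cells. Its IMQ and PA mean was dim, so it fell by at least 4.41 on the log2 scale. Neither gene overlapped between the groups. The lectin receptor gene Clec4b1, with a dim IMQ and PA mean of 2.09 against 5.96 in PA cells, fell by at least 1.05. The others of the 8 largest falls were Pgap1, an enzyme that remodels GPI anchors (-3.83 ± 0.09), Pld4, a lysosomal nuclease of single-stranded nucleic acids (-3.70 ± 0.04), the amino acid transporter Slc36a2 (-3.63 ± 0.13), Hacd4, a dehydratase of fatty acid elongation (-3.58 ± 0.05), and Tns1, the focal adhesion protein tensin (-3.57 ± 0.13). Pld4 fell by 2.22 without PA, and its difference of -1.48 ± 0.06 was called (adjusted p = 4.19e-10), as was that of Hacd4 (-1.44 ± 0.07).

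Of 14 measured genes of the TLR7 pathway, 8 were called higher, 4 lower and 2 not, at a median change of 0.45 (median over all genes 0.0023). Tlr7 itself read 8.33, 8.40, 8.45 and 8.51 in IMQ and PA cells, against 9.84, 9.79, 9.90 and 9.85 in PA cells, with no overlap. It fell by 1.42 ± 0.05 (adjusted p = 1.02e-12), against 0.61 without PA, and the difference of -0.81 ± 0.07 was called (adjusted p = 6.48e-07). Irf7, the interferon regulatory factor activated downstream of TLR7, rose by 2.81 ± 0.06, and Cd14, a co-receptor of several Toll-like receptors, by 2.15 ± 0.08. Irak3, an inhibitory member of the IRAK family, rose by 1.37 ± 0.07 with PA, against 2.14 without, a called difference of -0.76 ± 0.10. Irf8, a transcription factor of dendritic cell development, rose by 0.63 ± 0.04. The kinase gene Irak1 changed by -0.32 ± 0.07 (adjusted p = 0.00238), a call that was lost without PA replicates 3 and 4 (-0.21, adjusted p = 0.0641). The difference between the responses was called for 7 of the 14, 2 more positive and 5 more negative with PA.

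All 14 measured NF-kB subunits and inhibitors were called higher, at a median of 1.28. Nfkbiz, the atypical nuclear inhibitor IkB-zeta that Il6 transcription is known to need, read 9.94, 9.96, 10.00 and 10.00 in IMQ and PA cells, against 6.58, 6.63, 6.90 and 6.85 in PA cells. It rose by 3.23 ± 0.10 (adjusted p = 3.40e-13). The deubiquitinase gene Tnfaip3 (2.43 ± 0.07) and the inhibitors Nfkbia (1.95 ± 0.07) and Nfkbie (1.77 ± 0.05), which hold NF-kB in the cytoplasm, also rose. Of 16 feedback regulators 15 were called higher and 0 lower, at a median of 1.65. Socs3, an inhibitor of signalling by gp130 cytokines, read 9.52, 9.53, 9.45 and 9.51 in IMQ and PA cells and 6.22, 5.96, 6.34 and 6.56 in PA cells, a rise of 3.23 ± 0.11. Socs1, its relative that restrains interferon signalling, rose by 3.00 ± 0.08, the MAP kinase phosphatase gene Dusp16 by 2.90 ± 0.10 and the STAT5-induced inhibitor gene Cish by 2.16 ± 0.11. Cish rose by 1.29 without PA, a called difference of 0.87 ± 0.16 (adjusted p = 0.00152). The difference was called for 7 of the NF-kB genes, 4 more positive and 3 more negative, and for 8 of the feedback regulators, 6 and 2. For the NF-kB genes the count was 1 and 2 without PA replicates 3 and 4 and mock replicates 1 to 3.

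Promoters of 4 NF-kB-type response genes are printed because a match to the NF-kB motif lies within them. RefSeq windows (GRCm38.p6) of the 250 bases before the transcription start were searched on both strands for GGG, any 2 bases and TTTCC, and the last 150 bases before the start are shown 5′ to 3′ on the gene's strand, with the match in capitals. Of the 22180 measured genes 16918 had a window. The windows shown lie at chr5:30012964-30013113 (plus strand) for Il6, chr5:90891095-90891244 (plus) for Cxcl1, chr5:90785951-90786100 (plus) for Cxcl3 and chr12:55492648-55492797 (minus) for Nfkbia.
Il6: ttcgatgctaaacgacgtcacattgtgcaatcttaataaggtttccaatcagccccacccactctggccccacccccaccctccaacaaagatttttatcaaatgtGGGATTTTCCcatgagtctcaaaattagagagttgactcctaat
Cxcl1: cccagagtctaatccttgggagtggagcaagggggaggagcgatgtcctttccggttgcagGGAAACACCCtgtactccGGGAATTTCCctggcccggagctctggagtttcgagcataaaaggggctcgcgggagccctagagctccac
Cxcl3: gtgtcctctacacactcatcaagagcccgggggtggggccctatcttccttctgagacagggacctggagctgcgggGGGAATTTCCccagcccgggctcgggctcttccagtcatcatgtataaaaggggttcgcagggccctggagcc
Nfkbia: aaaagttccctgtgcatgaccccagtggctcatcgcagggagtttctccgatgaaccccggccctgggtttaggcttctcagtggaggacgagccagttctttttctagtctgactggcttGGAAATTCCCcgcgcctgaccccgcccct
The match of Il6 runs from -44 to -35 relative to the start and that of Cxcl3 from -73 to -64. That of Nfkbia lies on the opposite strand from -29 to -20. Cxcl1 holds one match from -71 to -62 and one on the opposite strand from -89 to -80. Of the 74 genes that rose by at least 3, 52 had a window and 7 of these held the motif (13.5%), against 22 of 462 genes with a window among those that rose by at least 1 (4.76%), 6 of 502 among those that fell by at least 1 (1.20%) and 281 of 16918 measured genes (1.66%). Over all 32851 windows of the table the share was 1.41%. The motifs were chosen with the responses known, and a match describes letters, not binding.

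Cytokine genes rose broadly, with 21 of 23 called higher, 0 lower and a median change of 1.96. Il12a, the p35 subunit of interleukin 12, rose by 4.83 ± 0.26, and Il12b, the p40 subunit that interleukins 12 and 23 share, read 11.79, 11.76, 11.78 and 11.81 in IMQ and PA cells, against 8.31, 8.28, 8.56 and 8.67 in PA cells (3.33 ± 0.12, adjusted p = 2.09e-12). Il23a, the p19 subunit particular to interleukin 23, read 8.23, 8.17, 8.34 and 8.15 in IMQ and PA cells, against 4.33, 4.39, 4.61 and 4.63 in PA cells. Its PA arrays were all dim, so it rose by at least 3.31 (adjusted p = 2.91e-13). Csf3, the granulocyte colony-stimulating factor, read 10.10, 9.97, 10.19 and 9.98 in IMQ and PA cells and 5.42, 5.33, 5.58 and 6.07 in PA cells, a 22.1-fold rise (4.46 ± 0.17). Neither Il23a nor Csf3 overlapped between the groups. Tnf, the early proinflammatory cytokine, read 10.67, 10.81, 10.81 and 10.76 in IMQ and PA cells and 8.50, 8.52, 8.60 and 8.73 in PA cells (2.17 ± 0.08). Il1b, the interleukin 1 beta precursor, rose by 2.79 ± 0.36 (3.38 without PA replicates 3 and 4) to 13.15 in IMQ and PA cells, close to the top of the measured range (13.5), where an array can understate a rise. The same caution applies to Ptgs2 and Cxcl3, which averaged 12.96 and 12.63 in IMQ and PA cells. Il10, the anti-inflammatory interleukin, rose by at least 0.99, and Csf2, which encodes GM-CSF, by at least 0.19, both with dim PA means. Ifnb1 was dim in both groups (3.74 in IMQ and PA cells, 3.53 in PA cells) and its change of 0.22 ± 0.13 was not called (adjusted p = 0.254).

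Among the cytokines the response differed with PA for 9 of 23 genes, 7 more positive and 2 more negative, at a median difference of 0.38 (median over all genes -0.0142). The median was 0.49 without PA replicates 3 and 4, with 8 more positive and 1 more negative, and 0.07 without PA replicates 3 and 4 and mock replicates 1 to 3, with 6 and 1. Il23a read 4.95, 5.07, 5.44 and 5.29 in IMQ cells and 4.43, 4.48, 4.35 and 4.76 in mock cells, so that its IMQ change was 3.73 with PA and 0.68 without PA, a difference of 3.05 ± 0.16 (adjusted p = 3.95e-09). The difference rests on dim means in PA and mock cells. Csf3 rose by 1.95 without PA, with 7.57, 7.15, 7.32 and 7.25 in IMQ cells and 5.37, 4.92, 5.43 and 5.79 in mock cells, a difference of 2.52 ± 0.24 (adjusted p = 2.74e-06). That of Csf3 was 3.16 without PA replicates 3 and 4 and mock replicates 1 to 3. Tnf went the other way. It rose by 2.17 with PA and 2.98 without PA, a difference of -0.81 ± 0.11 (adjusted p = 0.000103). Genes outside the naming rule, named after their values were seen, also had more positive responses with PA. These were Csf1, the macrophage colony-stimulating factor (1.79), and the gp130-family ligands Osm (1.59) and Lif (1.54). Csf1 read 9.72, 9.62, 9.90 and 9.63 in IMQ and PA cells and 8.48, 8.56, 8.63 and 8.70 in PA cells, against 7.77, 7.70, 7.81 and 7.59 in IMQ cells and 8.43, 8.32, 8.38 and 8.40 in mock cells. It rose with PA (1.12 ± 0.07) and fell without PA (-0.66). The difference for Il6 (1.28 ± 1.25, 95% interval -1.38 to 3.94) and Il12a (0.25, -0.53 to 1.03) was not called. For Il12a it was -0.53 without PA replicates 3 and 4 and mock replicates 1 to 3 (adjusted p = 0.100). Without PA replicates 3 and 4 that of Il6 was 3.16 (adjusted p = 0.0451). Without mock replicates 1 to 3 as well it was 0.61, so its size follows the uneven arrays. Both values rest on PA replicates 1 and 2, which were dim for Il6 (4.12 and 3.998). The second also rests on 1 mock array, dim as well (4.32). The difference of Il12b (0.57 ± 0.17, adjusted p = 0.0353) lost its call in several alternatives.

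Of 12 CXC chemokines 10 were called higher and 1 lower (median 2.18), and of 12 CC chemokines 7 were higher and 2 lower (median 0.93). Beside Cxcl1, Cxcl2, Cxcl3 and Cxcl5, the CC ligands Ccl4 (3.61 ± 0.15), Ccl7 (3.05 ± 0.12), Ccl2 (3.01 ± 0.09) and Ccl3 (2.03 ± 0.13), which draw monocytes and lymphocytes, rose. The platelet chemokine gene Ppbp fell (-1.68 ± 0.12), as did Ccl6 (-1.15 ± 0.06) and Ccl9 (-0.33 ± 0.04). Differences were called for 5 CXC genes, 2 more positive and 3 more negative, and for 3 CC genes, all more positive. Cxcl5 rose by 4.85 with PA and 3.72 without PA (difference 1.13 ± 0.21, adjusted p = 0.00156), with 8.97 to 9.01 in IMQ cells and 5.68, 5.36, 5.28 and 4.79 in mock cells. That difference was 0.78 without PA replicates 3 and 4 and mock replicates 1 to 3. Ppbp fell more with PA (-1.05 ± 0.17) and Ccl2 rose more (0.51 ± 0.13). The differences of Cxcl1 (0.84, 95% interval -0.48 to 2.16), Cxcl2 (0.51) and Cxcl3 (0.57) were not called. Without PA replicates 3 and 4 and mock replicates 1 to 3 the difference was -1.50 for Cxcl3 and -0.54 for Cxcl2. Its measured direction therefore depends on which arrays are used. The 1 mock array left was dim for both genes (4.40 for Cxcl3 and 4.82 for Cxcl2), so the negative values rest on a dim level. For Cxcl1 the difference was 1.64 without PA replicates 3 and 4 and 0.16 with mock replicates 1 to 3 left out as well.

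Among 12 receptors for chemokines and other attractants 5 were called higher and 6 lower (median -0.10). Beside Ccr2, the complement receptor C3ar1 (-1.85 ± 0.05), Cxcr4, which retains cells in bone marrow (-1.27 ± 0.04), and the fractalkine receptor Cx3cr1 (-1.14 ± 0.13) fell. Ccrl2, an atypical receptor that presents chemerin, rose by 3.07 ± 0.09, and Ccr7, which guides mature dendritic cells to lymph nodes, by 1.41 ± 0.05. For 7 of the 12 the difference was called, 3 more positive and 4 more negative. Ccrl2 (0.99 ± 0.13) and Ccr7 (0.39 ± 0.07) rose more with PA, the call of Ccr7 being lost without PA replicates 3 and 4 and mock replicates 1 to 3 (0.25, adjusted p = 0.200), and C3ar1 (-0.82 ± 0.08) and Cxcr4 (-0.40 ± 0.06) fell more. That of Ccr2 was not called (-0.22, 95% interval -0.63 to 0.20).

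The type I interferon response rose almost throughout, with 22 of 23 measured genes called higher, 0 lower and a median of 1.76. Ifi205, an interferon-inducible DNA-binding protein, rose by 4.60 ± 0.35 and Oasl1, an OAS-like protein, by 3.59 ± 0.11. Gbp5, a guanylate-binding GTPase, read 9.13, 8.89, 9.03 and 9.14 in IMQ and PA cells, against 5.35, 5.47, 5.64 and 5.41 in PA cells (3.58 ± 0.14). Ifit1, which binds viral RNA caps, read 11.16, 11.15, 11.10 and 11.22 in IMQ and PA cells, against 7.87, 7.82, 7.86 and 8.14 in PA cells, a 9.41-fold rise (3.23 ± 0.11, adjusted p = 1.46e-12). The ubiquitin-like modifier gene Isg15 rose by 3.02 ± 0.11. Gbp5, Ifit1 and Isg15 did not overlap between the groups (Isg15 spanned 10.40 to 10.49 in IMQ and PA cells and 7.16 to 7.63 in PA cells). The median difference between the responses was -0.05. A difference was called for 5 of 23 genes, 3 more positive and 2 more negative, beside 13.6% of all genes, dim ones included. That median was 0.0096 without PA replicates 3 and 4 and -0.22 without PA replicates 3 and 4 and mock replicates 1 to 3, so its sign follows the uneven arrays. Gbp5 (0.00, 95% interval -0.43 to 0.43) and Ifit1 (0.06, -0.27 to 0.40) had intervals within 0.5 either side of 0 over all arrays. Their differences were -0.50 ± 0.14 (adjusted p = 0.0781) for Gbp5 and -0.26 ± 0.10 (adjusted p = 0.198) for Ifit1 without PA replicates 3 and 4 and mock replicates 1 to 3. Oasl1 rose more with PA (0.64 ± 0.15, adjusted p = 0.00938). The difference of Ifi205 was -0.02 over all arrays and -1.18 without PA replicates 3 and 4 and mock replicates 1 to 3.

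Promoters of 2 of these genes are printed for their matches to the interferon-stimulated response element, searched as TTTC, any 2 bases and TTTC on both strands and shown in capitals. They lie at chr19:34640739-34640888 (plus strand) for Ifit1 and chr4:156200819-156200968 (minus strand) for Isg15.
Ifit1: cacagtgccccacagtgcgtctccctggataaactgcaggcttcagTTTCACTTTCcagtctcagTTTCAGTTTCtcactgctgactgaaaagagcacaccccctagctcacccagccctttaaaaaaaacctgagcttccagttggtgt
Isg15: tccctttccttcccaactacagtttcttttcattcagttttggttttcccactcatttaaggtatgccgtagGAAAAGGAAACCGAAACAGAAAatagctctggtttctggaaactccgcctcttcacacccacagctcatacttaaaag
Ifit1 held 2 matches, from -104 to -95 and from -85 to -76. In Isg15 3 overlapping matches on the opposite strand formed a run from -78 to -57. The motif was in 7 of 52 windows of genes that rose by at least 3 (13.5%), 45 of 462 that rose by at least 1 (9.74%), 26 of 502 that fell by at least 1 (5.18%) and 577 of 16918 measured genes (3.41%). Over all windows of the table the share was 2.98%.

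Of 16 effector genes, mostly enzymes of inflammation and tissue remodelling with the amino acid transporter Slc7a2 and the coagulation starter F3 among them, 14 were called higher and 0 lower (median 1.96). Hdc, which makes histamine from histidine, read 9.29, 9.25, 9.35 and 9.44 in IMQ and PA cells, against 4.79, 4.05, 4.84 and 4.96 in PA cells. Its PA mean was dim and it rose by at least 4.41. Ptges, the prostaglandin E synthase that acts after Ptgs2, rose by 3.99 ± 0.17. Hdc read 6.96, 6.68, 7.12 and 6.75 in IMQ cells and 4.88, 4.85, 4.99 and 3.84 in mock cells, a measured change of 4.67 with PA and 2.24 without PA (difference 2.43 ± 0.32, adjusted p = 7.52e-05). The difference of Hdc rests on dim means in PA and mock cells, and it was 1.87 without PA replicates 3 and 4 and mock replicates 1 to 3. For 7 of the 16 the difference was called, 5 more positive and 2 more negative. The more negative ones included Ch25h, an interferon-induced enzyme that makes an oxysterol. It read 8.27, 8.37, 8.24 and 8.28 in IMQ and PA cells and 7.98, 7.99, 7.90 and 8.11 in PA cells, against 10.49, 10.48, 10.52 and 10.40 in IMQ cells and 8.13, 7.93, 8.06 and 7.91 in mock cells. Its rise was 0.30 ± 0.06 with PA and 2.47 without PA, a difference of -2.17 ± 0.08 (adjusted p = 3.31e-10). Differences were not called for Ptgs2 (0.73 ± 1.25) or Nos2 (0.70 ± 0.67). Without PA replicates 3 and 4 they were 2.59 for Ptgs2 and 1.48 for Nos2, and with mock replicates 1 to 3 left out as well they were -0.01 and -0.27, so their size and direction follow the uneven arrays.

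Costimulatory and maturation genes rose in 15 of 16 cases and fell in 1 (median 1.54). Tnfsf15, which encodes the TNF-family ligand TL1A, read 10.33, 10.43, 10.35 and 10.44 in IMQ and PA cells, against 7.60, 7.63, 7.37 and 7.61 in PA cells (2.84 ± 0.07, adjusted p = 6.67e-14). The OX40 ligand gene Tnfsf4 rose by 2.67 ± 0.08 and Cd80, a ligand of CD28, by 2.48 ± 0.06. Cd40, the receptor through which T cells license dendritic cells, read 8.57, 8.54, 8.54 and 8.37 in IMQ and PA cells and 5.87, 5.96, 6.09 and 6.29 in PA cells (2.45 ± 0.09). The coinhibitory ligand gene Pdcd1lg2 fell (-0.41 ± 0.05). For 10 of 16 the difference was called, 7 more positive and 3 more negative, at a median of 0.32. Tnfsf4 (0.84 ± 0.11), Tnfsf15 (0.70 ± 0.10) and Cd80 (0.62 ± 0.09) rose more with PA, while the difference of Cd40 was not called (0.07, 95% interval -0.20 to 0.34).

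Antigen presentation split by class. Of 12 measured class II genes 10 were called lower and 2 higher (median -0.58), and of 12 class I genes 10 were higher and 0 lower (median 0.52). H2-DMa, a chain of the complex that loads peptides on class II molecules, read 7.66, 7.79, 7.55 and 7.73 in IMQ and PA cells, against 10.00, 10.02, 9.98 and 9.98 in PA cells, and fell by 2.31 on the log2 scale (adjusted p = 9.88e-14). The class II transactivator Ciita (-1.25 ± 0.08), the lysosomal thiol reductase Ifi30 (-0.93 ± 0.04), H2-DMb1 (-0.83 ± 0.12) and the class II alpha chain H2-Aa (-0.60 ± 0.04) fell. H2-Ob (0.69 ± 0.12) and H2-Oa (0.47 ± 0.07), the chains of a modulator that restrains H2-DM, rose. In class I the peptide transporters Tap1 (1.43 ± 0.05) and Tap2 (0.78 ± 0.05), the transactivator Nlrc5 (0.82 ± 0.07) and the immunoproteasome subunit Psmb9 (0.74 ± 0.05) rose. Differences were called for 2 of 12 genes of each class, all 4 more negative with PA, a share near the 13.6% of all genes, dim ones included. H2-DMa fell by 2.31 with PA and by 1.83 without PA (difference -0.47 ± 0.08, adjusted p = 0.00106), a call lost without PA replicates 3 and 4 and mock replicates 1 to 3 (-0.37, adjusted p = 0.151).

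Among gap junction and adhesion genes 7 of 16 were called higher and 8 lower, and among phagocytic and lectin receptors 4 of 18 higher and 9 lower. Itgb8, the integrin chain that helps activate TGF-beta, rose by 2.49 ± 0.09. Tns3, a relative of tensin (-2.13 ± 0.05), the integrin CD11c gene Itgax (-1.61 ± 0.04) and Cdh1, which encodes E-cadherin (-1.20 ± 0.07), fell. Gja1 read 8.54, 8.37, 8.59 and 8.42 in IMQ cells and 5.34, 4.87, 5.41 and 5.11 in mock cells. It rose by 5.30 with PA and 3.30 without PA (difference 2.00 ± 0.37, adjusted p = 0.00151). The measured difference was 2.65 without PA replicates 3 and 4, and it rests there on a dim PA mean. Itgb8 also rose more with PA (1.51 ± 0.13), and Cdh1 fell more (-0.86 ± 0.09). Mrc1, the mannose receptor, read 7.68, 7.55, 7.48 and 7.75 in IMQ and PA cells and 10.23, 10.24, 10.27 and 10.20 in PA cells, against 6.61, 6.44, 6.66 and 6.54 in IMQ cells and 10.19, 10.14, 10.22 and 10.17 in mock cells. It fell by 2.62 with PA and by 3.62 without PA, a difference of 1.00 ± 0.09 (adjusted p = 9.10e-07). Stab1, a scavenger receptor, fell by 1.87 with PA and by 0.47 without PA (difference -1.40 ± 0.08). The scavenger receptor Marco (3.07 ± 0.10) and Clec4e, a receptor for mycobacterial glycolipids (1.98 ± 0.11), rose, and their differences were not called. That of Clec4e was called without PA replicates 3 and 4 and mock replicates 1 to 3 (-0.54, adjusted p = 0.00444).

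Genes of lipid use and sterol synthesis fell. Of 18 genes of fatty acid oxidation and PPAR targets 12 were called lower and 2 higher (median -0.38), and of 15 cholesterol synthesis genes 14 were lower and 0 higher (median -0.51). Fabp4, a fatty acid binding protein, read 7.56, 7.58, 7.75 and 7.84 in IMQ and PA cells, against 11.01, 11.05, 10.99 and 10.95 in PA cells, and was 9.98-fold lower (-3.32 ± 0.07, adjusted p = 2.02e-14). Pparg, the lipid-sensing nuclear receptor, fell by 2.58, the fatty acid binding protein gene Fabp5 by 1.96, Cpt1a, which admits long-chain fatty acids to mitochondria, by 1.25 and Plin2, a lipid droplet coat protein, by 0.72 on the log2 scale. Angptl4, an inhibitor of lipoprotein lipase and a PPAR target, read 5.86, 5.83, 6.32 and 5.69 in IMQ and PA cells and 8.74, 8.86, 8.84 and 8.77 in PA cells, against 5.46, 4.95, 4.90 and 5.30 in IMQ cells and 6.23, 6.15, 6.32 and 6.39 in mock cells. It fell by 2.88 with PA and by 1.12 without PA (difference -1.76 ± 0.19, adjusted p = 7.72e-06), and its level without IMQ was higher on every PA array than on any mock array. Hilpda, a lipid droplet protein that inhibits lipolysis, rose by 2.76 with PA and 1.14 without PA (difference 1.62 ± 0.08), and Ppard rose by 0.49 ± 0.05 with PA. Differences were called for 6 of the 18, 3 each way, and for 1 of 15 sterol genes, beside 13.6% of all genes, dim ones included. Dhcr7, the last enzyme of cholesterol synthesis by one route, read 6.07, 6.14, 5.92 and 6.01 in IMQ and PA cells and 7.89, 8.11, 8.06 and 8.20 in PA cells (-2.03 ± 0.09), and Cyp51 (-1.05 ± 0.07), Nsdhl (-0.96 ± 0.06) and Hmgcs1 (-0.78 ± 0.05) fell as well.

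Glycolysis genes moved less, with 9 of 14 called higher, 2 lower, 0 of them by at least 1, and a median of 0.19. The regulator Pfkfb3 (0.96 ± 0.05), the glucose transporter Slc2a1 (0.72 ± 0.04), the lactate exporter Slc16a3 (0.70 ± 0.05) and hexokinase 2, Hk2 (0.57 ± 0.04), rose, while Hk3 fell (-0.43 ± 0.06). Pkm changed by -0.15 ± 0.04, a call lost without PA replicates 3 and 4 (adjusted p = 0.0811), when 7 were called higher and 1 lower. Pfkfb3 rose less with PA (difference -0.51 ± 0.07). Of 12 targets of the antioxidant factor NRF2 10 were called higher and 0 lower (median 0.75), and 7 had a more positive and 3 a more negative response with PA. Gclc, which limits glutathione synthesis, rose by 1.45 ± 0.06 with PA and had a change of 0.10 without PA (difference 1.35 ± 0.09, adjusted p = 5.11e-08). Srxn1, a sulfiredoxin, rose by 1.08 ± 0.05 with PA against -0.08 without PA (difference 1.15 ± 0.07). The autophagy receptor gene Sqstm1 rose by 0.92 ± 0.04, with an interval of the difference from -0.12 to 0.13.

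Folding genes of the endoplasmic reticulum (ER) rose in the PA background more than without it. Of 22 chaperones and genes of ER-associated degradation (ERAD) 20 were called higher and 0 lower (median 0.61), while without PA 11 were higher and 6 lower (median 0.10). The difference was called more positive for 15 and more negative for 1, at a median of 0.60, against 6.58% and 7.01% of all genes. With genes dim in every group left out, it was called more positive for 1643 and more negative for 1865 of 13621 genes. Hspa5, the chaperone BiP, read 11.18, 11.09, 11.31 and 11.10 in IMQ and PA cells, against 9.83, 9.89, 9.90 and 10.03 in PA cells, 9.96, 9.88, 10.00 and 9.83 in IMQ cells and 9.70, 9.76, 9.72 and 9.68 in mock cells. The IMQ and PA arrays stood above all others. Hspa5 rose by 1.26 ± 0.06 with PA and 0.21 without PA (difference 1.05 ± 0.08, adjusted p = 4.93e-07). Derl3, a channel component of ERAD, read 9.45, 9.20, 9.49 and 9.47 in IMQ and PA cells and 6.15, 6.37, 6.26 and 6.42 in PA cells, against 6.23, 6.12, 6.69 and 6.37 in IMQ cells and 5.40, 5.63, 5.78 and 5.46 in mock cells. It rose 8.58-fold with PA (3.10 ± 0.12) and by 0.79 on the log2 scale without PA (difference 2.31 ± 0.16, adjusted p = 1.19e-07). Creld2, an ER-resident folding factor, rose by 1.73 ± 0.05 with PA and 0.34 without PA (difference 1.39 ± 0.07), and the co-chaperone gene Dnajb9 by 1.24 ± 0.06 and 0.55 (difference 0.69 ± 0.08). Without PA replicates 3 and 4 the count was 15 more positive and 0 more negative, and it was the same with mock replicates 1 to 3 left out too.

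Promoters of 2 of these genes are printed for a match to the ER stress response element, searched as CCAAT, any 9 bases and CCACG on both strands, in capitals. They lie at chr2:34771940-34772089 (plus strand) for Hspa5 and chr15:88819496-88819645 (plus strand) for Creld2.
Hspa5: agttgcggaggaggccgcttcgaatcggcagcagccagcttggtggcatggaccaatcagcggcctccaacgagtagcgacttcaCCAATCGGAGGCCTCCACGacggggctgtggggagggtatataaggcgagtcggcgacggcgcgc
Creld2: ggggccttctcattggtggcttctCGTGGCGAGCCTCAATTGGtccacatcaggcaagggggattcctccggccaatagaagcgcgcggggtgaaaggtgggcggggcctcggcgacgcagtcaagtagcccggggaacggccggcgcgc
The match of Hspa5 runs from -65 to -47, and that of Creld2 lies on the opposite strand from -126 to -108. The motif was in 4 of 118 windows of genes whose response was more positive with PA by at least 1 (3.39%), 0 of 58 with a response more negative by at least 1 and 27 of 16918 measured genes (0.16%). Over all windows of the table the share was 0.113%. The cyclic AMP response element TGACGTCA was also searched, and it was in 10 of 462 windows of genes that rose by at least 1 (2.16%), against 387 of 16918 measured genes (2.29%).

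The list for PERK and ATF4, a stress branch that also serves amino acid supply, rose with PA as well, with 18 of 20 genes called higher and 0 lower (median 0.97), but 12 of the 20 had a more negative and 4 a more positive response than without PA (median difference -0.47). Ddit4, an inhibitor of mTORC1, rose by 3.50 ± 0.10 with PA and 2.69 without PA (difference 0.81 ± 0.13). Trib3, a pseudokinase target of ATF4, rose by 1.41 ± 0.07 with PA and 1.86 without PA (difference -0.45 ± 0.11, adjusted p = 0.00879), a call lost without PA replicates 3 and 4 and mock replicates 1 to 3 (-0.49, adjusted p = 0.120). Slc7a11, the cystine importer, rose by 1.43 ± 0.05 with PA and 1.67 without PA, a difference of -0.23 ± 0.07 (adjusted p = 0.0472) that lost its call in several alternatives. Ddit3, the factor CHOP, rose by 1.49 ± 0.07 with PA and 1.18 without PA, and its difference of 0.31 ± 0.10 (adjusted p = 0.0450) was as fragile. Without PA replicates 3 and 4, 17 genes were called higher, and the differences were 4 more positive and 10 more negative. With mock replicates 1 to 3 left out as well they were 1 and 9.

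Cell cycle genes fell, with 19 of 21 called lower and 2 higher (median -1.05). Ccna2, which encodes cyclin A2, read 4.04, 4.40, 4.15 and 3.73 in IMQ and PA cells, against 6.98, 7.04, 7.13 and 7.33 in PA cells. Its IMQ and PA mean was dim and it fell by at least 2.20. Cyclin B2, Ccnb2 (-2.10 ± 0.12), the topoisomerase Top2a (-1.73 ± 0.08) and the checkpoint kinase Bub1, which fell by at least 0.80 to a dim mean, are genes of dividing cells. The inhibitor Cdkn1a, p21, rose by 1.19 ± 0.04, as did the thymidylate synthase Tyms (0.89 ± 0.10). Differences were called for 2 of the 21, 1 each way, beside 13.6% of all genes, dim ones included. For Cdkn1a the interval of the difference was -0.07 to 0.15.

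**Figure D3:**
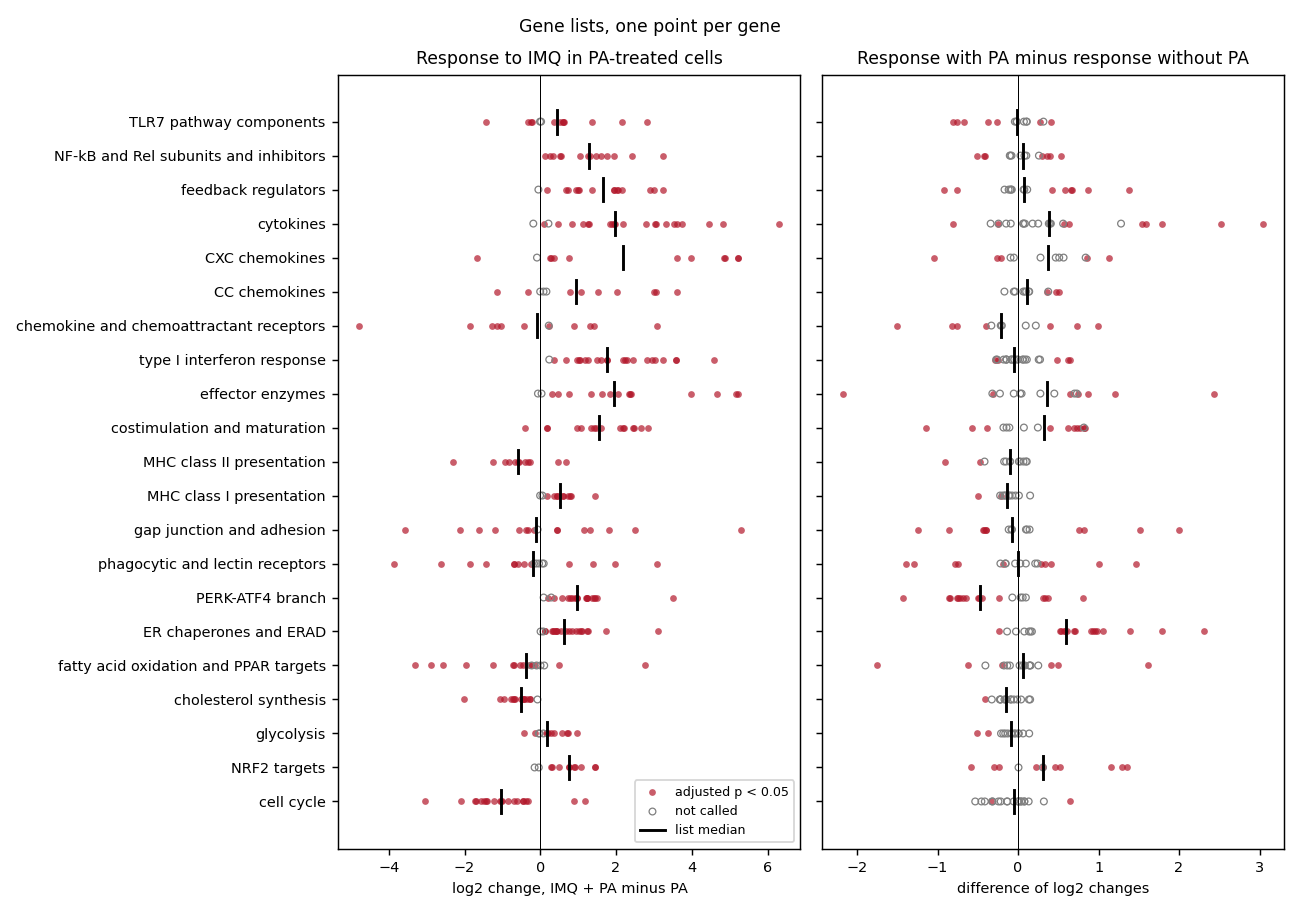
Log2 change of each gene of 21 lists in IMQ and PA cells over PA cells (left) and the difference of that change from the change without PA (right), 1 point per gene, filled where the adjusted p is under 0.05, with the list median as a bar. On the left the medians of the cytokine, chemokine and interferon lists lie to the right of 0 and those of the cell cycle and sterol lists to the left, and on the right the medians of the ER list (0.60) and the PERK-ATF4 list (-0.47) lie on opposite sides.

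Set against the response without PA, the response in PA-treated cells was alike in outline and differed for many genes in size. Without PA 7727 genes (34.8%) were called, 3766 higher (17.0%) and 3961 lower (17.9%), and a change of at least 1 was met by 571 higher (2.57%) and 567 lower genes (2.56%), 1138 in all (5.13%). Of the 7836 genes called with PA and the 7727 called without it, 5685 were called in both, which is 72.5% and 73.6% of each. The direction was the same for 5445 of them and opposite for 240, of which 126 rose with PA and fell without PA and 114 fell with PA and rose without PA, and the difference was called for all 240. The 2 responses share no arrays, and their log2 changes correlated across the 22180 genes at Pearson 0.833 and Spearman 0.593, as a description over genes that are not independent. Since the response with PA enters both the choice of strong responders and the difference, genes were also chosen by the average of both responses. Of 566 genes whose average rise was at least 1, 169 rose more with PA, 116 rose less and 281 had no called difference. The 95% interval of the difference lay within 0.5 either side of 0 for 185 of the 566. Of 557 genes with an average fall of at least 1, the difference was called more positive for 93 and more negative for 116, and it lay within 0.5 for 276. A difference of at least 1 was called for 230 genes (1.04%), 161 more positive (0.726%) and 69 more negative (0.311%).

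**Figure D4:**
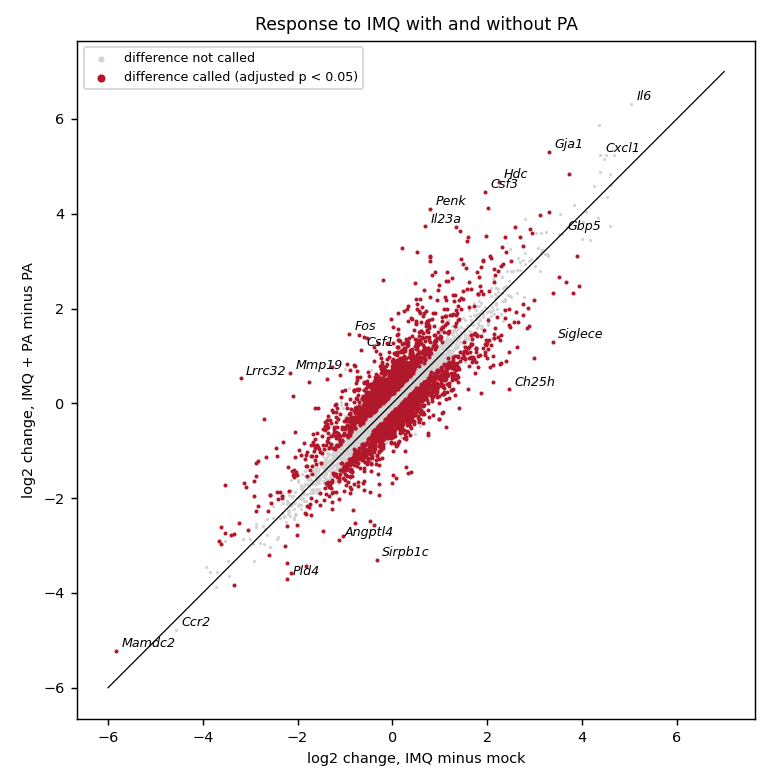
Log2 change of IMQ and PA cells over PA cells (vertical axis) against that of IMQ cells over mock cells (horizontal axis), 1 point per gene, red where the difference was called, with the line of equal change. Ccr2 and Gbp5 lie near the line, while Penk, Il23a, Csf3 and Hdc lie above it and Sirpb1c, Angptl4 and Ch25h below it.

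The largest differences were ranked among genes also called for the response with PA, leaving aside loci with clone-based or predicted names. The 6 most positive were those of Lrrc32, Penk, Sptssb, Il23a, Il2 and Mmp19. Lrrc32, which encodes GARP, a surface anchor of latent TGF-beta, read 9.34, 9.27, 9.44 and 9.23 in IMQ and PA cells and 8.78, 8.80, 8.74 and 8.85 in PA cells, against 5.96, 5.72, 5.41 and 5.36 in IMQ cells and 8.80, 8.71, 8.91 and 8.83 in mock cells. It rose by 0.53 ± 0.10 with PA and fell by 3.20 without PA (difference 3.73 ± 0.15, adjusted p = 3.36e-10). Penk, the precursor of enkephalins, read 10.08, 10.06, 10.17 and 10.00 in IMQ and PA cells and 5.90, 5.67, 6.14 and 6.20 in PA cells, against 6.69, 6.50, 6.70 and 6.56 in IMQ cells and 5.79, 5.74, 5.79 and 5.93 in mock cells. The IMQ and PA arrays alone were high, with a 17.1-fold rise (4.10 ± 0.10) against 0.80 on the log2 scale without PA (difference 3.30 ± 0.14, adjusted p = 4.19e-10). Sptssb, a small subunit of the palmitoyltransferase that begins sphingolipid synthesis, rose by at least 1.65 with PA, was dim in the other 3 groups and had a measured difference of 3.07 ± 0.24. Il2, the T cell growth factor, averaged 5.17 in IMQ and PA cells, was dim in the other groups and rose by at least 0.25 (measured difference 2.80 ± 0.23). The metalloproteinase gene Mmp19 rose by 0.64 with PA and fell by 2.15 without PA (difference 2.79 ± 0.07, adjusted p = 1.38e-12).

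The 6 most negative differences under the same rule were those of Sirpb1c, Sirpb1a, Ch25h, Siglece, Klra2 and P2ry13. Sirpb1c, of the SIRP family of paired receptors, read 5.54, 5.70, 6.21 and 6.04 in IMQ and PA cells and 9.31, 9.15, 9.21 and 9.03 in PA cells, against 8.76, 9.16, 8.67 and 8.81 in IMQ cells and 9.17, 9.25, 9.19 and 9.10 in mock cells. It fell by 3.30 ± 0.13 with PA, and its change of -0.33 without PA was not called (adjusted p = 0.0693), with a difference of -2.97 ± 0.19 (adjusted p = 3.39e-08). Its near relative Sirpb1a fell by 2.56 with PA and by 0.39 without PA (-2.18 ± 0.08), and probes of close family members may share signal. P2ry13, a receptor for ADP, read 4.86, 5.10, 4.93 and 4.67 in IMQ and PA cells and 7.33, 7.32, 7.36 and 7.49 in PA cells, against 6.93, 6.84, 7.06 and 6.88 in IMQ cells and 7.38, 7.42, 7.34 and 7.44 in mock cells. It fell by at least 2.41 with PA to a dim mean and by 0.47 without PA (measured difference -2.02 ± 0.11). The inhibitory sialic acid receptor Siglece rose by at least 1.18 with PA and 3.39 without PA (measured difference -2.08 ± 0.15), and the Ly49-family gene Klra2 by 0.95 and 2.98 (-2.03 ± 0.14). Without PA replicates 3 and 4 and mock replicates 1 to 3 the measured difference of Siglece was -2.42.

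**Figure D5:**
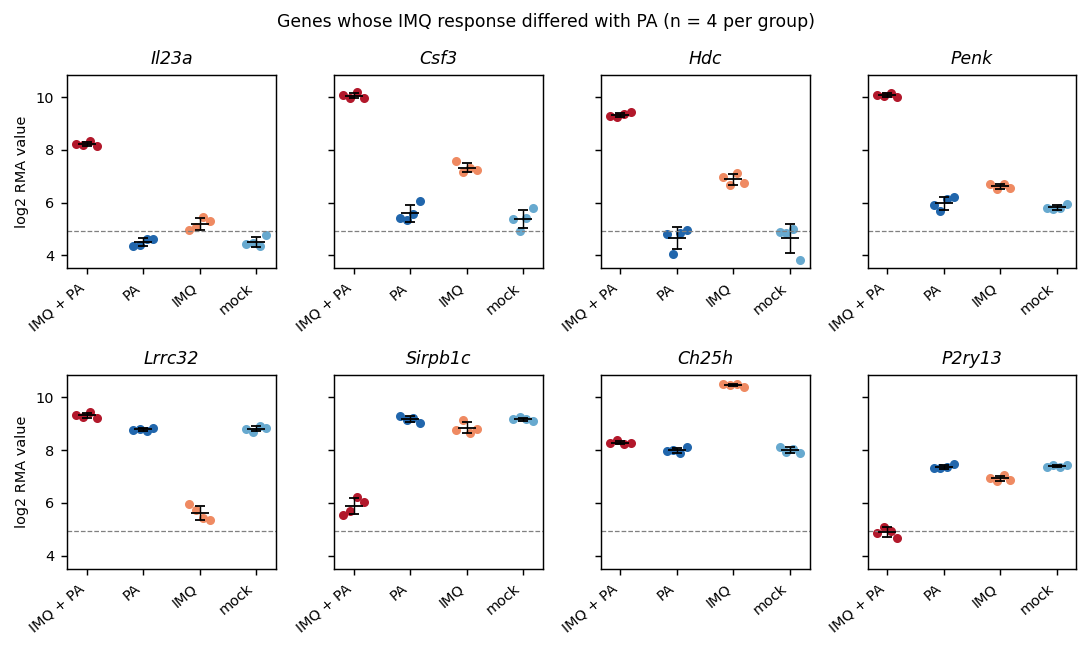
Log2 RMA value (vertical axis) of 8 genes whose response differed with PA, on each array, with mean ± SD of 4 arrays and a dashed line at 4.92. In the upper row and in Sirpb1c and P2ry13 the IMQ and PA arrays stand apart from the other groups, while in Lrrc32 and Ch25h the IMQ arrays do.

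Genes called in opposite directions included Fos, the AP-1 subunit, which rose by 1.47 ± 0.07 with PA and fell by 0.92 without PA (difference 2.39 ± 0.10), and Dcstamp, a membrane protein of cell fusion, which rose by 0.44 ± 0.04 with PA and fell by 1.75 without PA (2.20 ± 0.06). In the other direction were Csf3r, the receptor of the Csf3 product (-1.35 ± 0.05 with PA, 0.29 without PA, difference -1.64 ± 0.07), Sla, an adaptor that dampens antigen receptor signals (-0.50 with PA, 1.13 without PA, difference -1.63), Calcrl, a receptor subunit for calcitonin-related peptides (-0.68 with PA, 0.76 without PA, difference -1.44), and the aromatic amino acid transporter gene Slc16a10 (-0.63 with PA, 0.75 without PA, difference -1.38). The 6 strongest responders whose interval of the difference over all arrays lay within 0.5 either side of 0 were Gbp5, Daglb, Fabp4, Ifit1, Nfkbiz and Socs3. Daglb, a diacylglycerol lipase, fell by 3.57 with PA and by 3.84 without PA (difference 0.27, 95% interval 0.05 to 0.49). For Fabp4 the interval was -0.04 to 0.36, for Nfkbiz -0.21 to 0.37 and for Socs3 -0.25 to 0.41.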

How the data were processed

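Total RNA (200 ng per sample) was labelled with biotin and hybridised to 1-colour Affymetrix arrays, per the labels' protocols. The authors deposited log2 values, and RMA and affy are named in the submitters' processing notes without versions. RMA corrects background, normalises by quantiles and summarises probes. A genome build for the array is not given in the sources used here. Values of 41345 probe sets were deposited, between 0.628 and 13.5. Precision is limited by the number of arrays, which have no read depth.

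Of the probe sets 23521 carried 1 symbol in the platform annotation, 1814 several and 16010 none listed. Probe sets with several or no symbols were not used. By gene number 23328 were found in RefSeq and 193 were not. For 1082 genes with several probe sets the one with the highest mean was used. The model had 1 mean per group over the 16 arrays and was fitted in limma 3.58.1 (R 4.3.3, eBayes, 12 residual and 2.96 prior degrees of freedom, two-sided), with Benjamini-Hochberg adjustment over 22180 genes. The difference is the IMQ change with PA minus the IMQ change without PA, and ± after a change is the standard error of the fit. The fit was tested on simulated data in which each gene had the same spread in every group. That test does not cover genes with unequal spread, such as Il6 (SD 0.012 in IMQ and PA cells, 2.20 in PA cells).

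The members and the 28 gene lists (410 genes, 377 measured, 12 of the others on probe sets with several symbols) were chosen with earlier results of these data known, and the lists are described by counts and medians. Leaving aside predicted, clone-based or unnamed loci, named were the 8 highest and 8 lowest called changes without overlap, up to 4 called list members in the main direction and 2 in the other, the 6 highest and 6 lowest called differences, 4 genes called in opposite directions each way, the 6 largest changes with a difference within 0.5, and a preset list. The 6 highest and 6 lowest differences were taken among genes also called for the response with PA. Promoter windows came from RefSeq (GRCm38.p6). Alternatives were a fit of the 8 arrays, a replicate block, trended robust moderation, repeated quantile normalization, equal array medians, a filter on dim genes, the mean of probe sets, and each array left out. Leaving out PA replicates 3 and 4, with or without mock replicates 1 to 3, was chosen after seeing the data.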

Additional observations from a re-analysis of the deposited data

Results flagged for a closer look

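In 3 of 66 groups of 4 arrays that were examined, over 33 genes whose array values are printed, 1 array lay far from the other 3. Chance flags about 1 in 20 groups. Cd40 read 8.37 on IMQ and PA replicate 4, against 8.54 to 8.57 on the other IMQ and PA arrays. Tnfsf15 read 7.37 on PA replicate 3, against 7.60 to 7.63 on the others. Derl3 read 9.20 on IMQ and PA replicate 2, against 9.45 to 9.49 on the others.

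The IMQ response differed between cells with and without PA for 3015 genes by the limma test of the difference. The named ones with the most positive differences were Lrrc32 (3.73), Penk (3.30), Sptssb (3.07), Il23a (3.05), Il2 (2.80), Mmp19 (2.79), Fos (2.39) and Dcstamp (2.20). The most negative were Sirpb1c (-2.97), Sirpb1a (-2.18), Ch25h (-2.17), Siglece (-2.08), Klra2 (-2.03), P2ry13 (-2.02), Csf3r (-1.64), Sla (-1.63), Calcrl (-1.44) and Slc16a10 (-1.38). Among these, Sptssb, Il2 and Il23a were dim in PA and mock cells.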

How the results depend on the processing

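The count of genes called for the response with PA was 7836 and lay between 6578 and 8058 over the alternatives (7401 to 7900 when single arrays were left out), and that with a change of at least 1 was 1247 and lay between 1212 and 1258. The response without PA gave 7727 calls, and 5232 without PA replicates 3 and 4 and mock replicates 1 to 3. The count of called differences, 3015, was 1200 in that setting, of which 1100 were among the 3015, and otherwise 2270 to 3547. It leaves 1 mock array, assumed to vary like the other groups, and both it and the loss of PA replicates 3 and 4 were chosen by the inflammatory genes they change. There the difference turned to -1.50 for Cxcl3 and -0.54 for Cxcl2, on 1 mock array that was dim for both (4.40 and 4.82). The difference was -1.18 for Ifi205, -0.54 for Clec4e and 0.61 for Il6 in that setting. Of 152 named genes, 13 lost a called difference in it, 3 gained one in the same direction and 2, Cxcl2 and Cxcl3, gained one in the opposite direction, and 5 lost and 3 gained one when PA replicates 3 and 4 alone were left out. Differences that lost their call in other settings were those of Mamdc2, Il12b, Ddit3, Slc7a11, Mmp8, Pgap1 and Camp. Responses with PA were lost in at least 1 setting for Camp, Cpa3, Cxcr2, Irak1, Pkm and Epx. The replicate block gave 7885, 1247, 7721 and 2942 calls in the order above, and the difference lost its call for Il12b (adjusted p = 0.0571), Mamdc2 (0.0635) and Slc7a11 (0.0727) and gained it for Top2a (0.0369). Same-numbered IMQ and PA and PA arrays correlated at -0.0244 to 0.0399 in their deviations from the group means. Over all pairs of groups the same-number values ran from -0.118 to 0.173, and those over 0.1 were IMQ with mock in replicates 2 (0.146) and 3 (0.173) and, in replicate 3, IMQ and PA with IMQ (0.115) and with mock (0.114). In no pair of groups were all 4 over 0.1, so the numbers were not taken to pair the arrays. Dim levels limit what is known of genes under 4.92, which were 8928 of 22180 in both groups of the comparison.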

Other observations

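Over all genes 16.8% were called higher and 18.5% lower, beside which the counts of markers stand. Of 13 dendritic cell markers 3 were called higher and 9 lower. Irf4 (0.92 ± 0.06) and Zbtb46 (0.72 ± 0.11), transcription factors of conventional dendritic cells, rose, and the class II chain H2-Eb1 (-0.67 ± 0.04) fell. Of 11 macrophage and monocyte markers 4 were higher and 6 lower, with Mertk, a receptor for apoptotic cells (-1.54 ± 0.06), and the lipoprotein gene Apoe (-1.49 ± 0.05) among the falls. Mertk fell by 2.08 without PA, and the difference of 0.54 ± 0.08 was called (adjusted p = 0.000223). The plasmacytoid dendritic cell markers Bst2 (1.21 ± 0.06), which interferon also induces, and Tcf4 (0.33 ± 0.06) rose, while the other 3 of 5 were not called.

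Of 10 neutrophil markers 2 were called higher and 3 lower, shares not far from those of all genes. S100a8, a calcium-binding protein that myeloid cells induce, rose by 1.76 ± 0.08, and Mmp8, the neutrophil collagenase, fell by 1.49 to 10.77 in IMQ and PA cells, against 12.26 in PA cells. S100a9 (4.20 in IMQ and PA cells, 4.80 in PA cells) and Camp (3.96 in IMQ and PA cells, 3.61 in PA cells) were dim in both groups. Of 8 markers of mast cells, basophils and eosinophils 3 were called higher and 1 lower. Kit, the stem cell factor receptor, rose by 0.51 ± 0.10, and Prg2 (at least 0.71) and Epx (at least 0.35), granule proteins of eosinophils, rose above a dim PA mean. The 7 measured lymphocyte markers and the 1 erythroid marker were not called.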
